A study of Oryza sativa Indica Group with 10 samples.

Results

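Rice seedlings in which OsbZIP48 was knocked down were sorted by the labels into 2 kinds, one described as lethal and one as resembling the wild type. The comparison of these kinds, within one transgene, used 4 of the 10 arrays of the series and took in every probe set that is not an array control, 57258 in all. The groups were 2 KD lethal arrays and 2 KD wild-type-like arrays, both of OsbZIP48 knock-down, with 2 arrays of the pANDA vector control set beside them to show on which side the vector lay. The other 4 arrays, 2 of OsbZIP48 over-expression and 2 of the B4NU vector, entered only the estimate of spread and the choice of the probe set read for each gene. All were the Indica cultivar Pusa Basmati 1, grown in light at 28 °C on MS basal medium, and 500 ng of total RNA was labelled per array. The age is given as 10 days in the labels and 7 days in the design text, and the tissue label is the whole seedling while the extraction protocol speaks of roots. The labels call the 2 arrays of each group biological replicates. They do not say how many transformation events, plants or pooled seedlings stand behind an array, or how far the lethal seedlings had declined when they were collected.

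OsbZIP48 belongs to the basic leucine zipper (bZIP) family and is the rice relative of Arabidopsis HY5. HY5-type factors act below the photoreceptors: they bind G-box-like promoter elements and switch on genes for chlorophyll, photosynthesis and pigment synthesis when a seedling reaches the light. In Arabidopsis the COP1 ubiquitin ligase removes HY5 in darkness. Whether OsbZIP48 protein is removed in the same way was not analysed here. pANDA is a vector that produces a hairpin RNA and so lowers the transcript that it matches. No label pairs a vector with a transgene, and pANDA was taken as the control of the knock-down because it is a silencing vector and shares the knock-down arrays' normalisation. The platform annotation ties no probe set to OsbZIP48, so the level of the target was not analysed here and the strength of the knock-down in either kind of seedling is unknown.

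The deposited values are log2 signals, and a difference of 1 is a 2-fold change. The 2 KD lethal arrays were less alike than the 2 of KD wild-type-like or the 2 of pANDA. Across probe sets the KD lethal replicate correlation was 0.9813 and the SD of the log2 difference 0.341. These were 0.9927 and 0.214 for KD wild-type-like and 0.9971 and 0.133 for pANDA. The over-expression arrays, which entered the estimate of spread, scattered most. In a fit that weighted arrays by their scatter, each weighed 0.148, the lowest, against 0.627 for each KD lethal array. Above the background floor, 1604 probe sets differed at least 2-fold between the KD lethal arrays, 214 between the KD wild-type-like arrays and 18 between the pANDA arrays. The ubiquitin control probes, which read the 3′ against the 5′ end of a transcript, gave 3′ minus 5′ log2 differences of -0.51 and -1.60 in KD lethal, against -0.15 and 0.85 in KD wild-type-like, and 0.63 and 0.85 in pANDA. The same measure of the GAPDH control was 3.90 and 3.10 in KD lethal, against 4.29 and 4.82 in KD wild-type-like, and 4.19 and 4.32 in pANDA. The actin control gave 5.29 and 4.91 in KD lethal, against 5.52 and 5.34 in KD wild-type-like, and 5.42 and 5.58 in pANDA. These 3 controls were lower on each KD lethal array than on any array of the other 2 groups, whereas the cyclophilin control overlapped, with 1.71 and 1.49 in KD lethal, against 1.48 and 1.66 in KD wild-type-like, and 1.42 and 1.31 in pANDA. Their part in the results was not tested. RNA of whole seedlings was measured, so fewer cells of a type and less RNA per cell cannot be told apart.

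Of the 57258 probe sets, 6408 (11.2%) differed between KD lethal and KD wild-type-like seedlings at an adjusted p under 0.05 in limma, 3708 of them higher in KD lethal (6.48%) and 2700 lower (4.72%). The falls were the larger changes. Their median was -1.93 on the log2 scale, against 1.36 for the rises, and 1292 probe sets were lower by 2 or more log2 units while 795 were higher by that much. In all 6408 the values of the groups did not overlap, which also held for 20393 probe sets (35.6%) whether called or not. Counted as genes, one probe set each, 4265 of 17905 were called (23.8%), 2435 higher (13.6%) and 1830 lower (10.2%). The median difference of all genes was 0.03, and 0.21 over the 14080 genes above the floor in at least one of the groups. In 1107 of the higher calls KD wild-type-like lay at the floor, in 626 of the lower calls KD lethal did, and 360 calls had both groups at the floor, where a difference has no useful size.

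**Figure D1:**
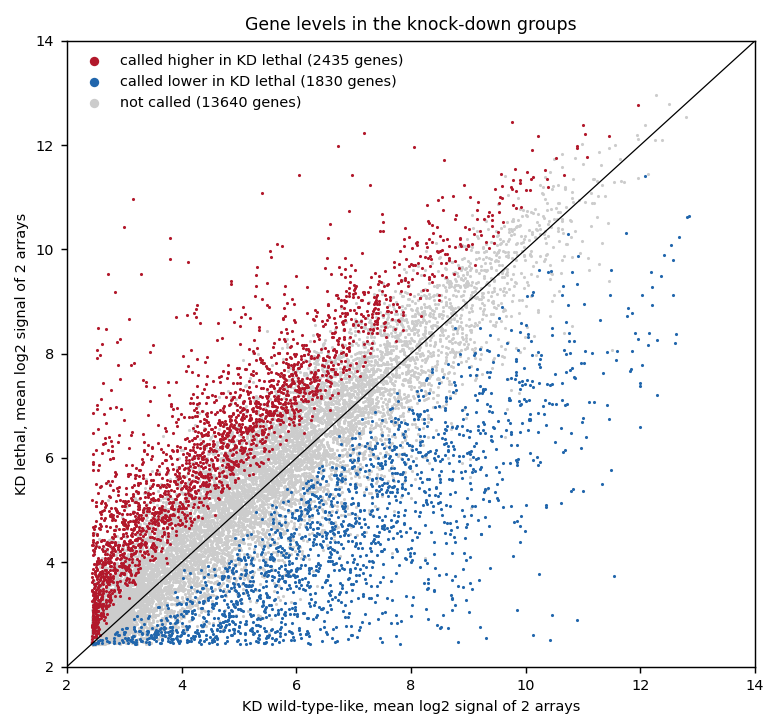
Mean log2 signal of each gene in KD lethal seedlings (vertical axis) against KD wild-type-like seedlings (horizontal axis), 1 point per gene, mean of 2 arrays; colours mark genes called higher (2435) or lower (1830) in KD lethal at an adjusted p under 0.05. The lower calls reach further from the diagonal than the higher ones.

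The calls lean on how the spread is estimated. Fitting the 4 knock-down arrays alone left 1191 probe sets, 578 higher and 613 lower, of which 984 were among the 6408. With 6 arrays (pANDA included) 6005 were called. The balance of higher to lower moved with single arrays: higher calls made up 57.9% of the total over all arrays, 70.6% without KD lethal replicate 1 and 68.5% without KD lethal replicate 2, but 37.3% without either KD wild-type-like array. The share was 52.3% after quantile normalisation of the 6 arrays, 61.3% after centring each array, and 48.5% with the 4 arrays alone. Leaving out either KD lethal array could not reverse a called probe set, since the groups overlapped in none of the 6408. Of the 305 called genes named by the rule given with the processing, 201 kept their call under every alternative other than the fit of 4 arrays. In that fit 68 kept it. None changed direction under quantile normalisation or centring, the only alternatives tried that could have changed it. Named genes below come mostly from the 201, and the others are marked as less secure. Where leaving out 1 array moved a list's count well away from the reported one, the count without that array is given beside it.

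The largest rises among named genes began with an esterase, a laccase, a nucleoredoxin and a NAC transcription factor. Pir7b (LOC4326788), an esterase gene first known from its response to bacteria and fungi, had log2 signals of 10.76 and 11.39 in KD lethal against 5.45 and 5.34 in KD wild-type-like and 5.43 and 5.44 in pANDA. Both KD lethal arrays stood far above the other 4, a difference of 5.68 ± 0.20 (SE) or 51.2-fold (limma adjusted p = 1.51e-04). LAC24, a laccase (a copper enzyme that oxidises phenolics), had 8.78 and 8.54 in KD lethal, against 3.11 and 3.06 in KD wild-type-like, higher by 5.57 ± 0.12 (adjusted p = 4.46e-05). The nucleoredoxin gene OsNrx1-2 had 11.51 and 11.34 in KD lethal, against 6.36 and 5.72 in KD wild-type-like. NAC45, a stress-responsive transcription factor of the NAC family, had 8.46 and 7.97 in KD lethal, against 3.14 and 2.59 in KD wild-type-like, 40.8-fold higher. The adjusted p values of these 2 genes were 0.00131 and 3.67e-04. Next in size came R1C-Prx, a peroxiredoxin known from seed embryo and aleurone, which had 7.51 and 7.38 in KD lethal against 2.64 and 2.63, at the floor, in KD wild-type-like, at least 28.1-fold higher (adjusted p = 6.28e-04). CYP71P1, which makes serotonin from tryptamine, had 9.86 and 9.47 in KD lethal against 5.29 and 5.34 in KD wild-type-like and was 20.4-fold higher (adjusted p = 0.00117). The other 9 of the 15 largest rises were ICL, PBZ1, ta4, AOX1, ABCG36, salT, PXG, OAT and LAC19, higher by between 3.65 and 4.47 log2 units.

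The largest falls among named genes included an aquaporin, a metallothionein, both silicon transporters and a plastid peroxiredoxin. OsPIP2;7, an aquaporin of the plasma membrane, lay at the floor in KD lethal (2.64 and 2.58) against 10.06 and 10.21 in KD wild-type-like and 9.81 and 9.70 in pANDA. That was a fall of 7.52 ± 0.63 log2 units, at least 184-fold (adjusted p = 0.00185). The metallothionein gene MT-1-4b, a small cysteine-rich metal binder, had 3.52 and 4.04 in KD lethal, against 10.42 and 10.03 in KD wild-type-like, 86.9-fold lower (adjusted p = 2.29e-04). PRXIIE-2, a peroxiredoxin of plastids, had 3.43 and 3.54 in KD lethal, against 8.79 and 9.34 in KD wild-type-like, 47.6-fold lower (adjusted p = 6.13e-04). In each of these the KD lethal arrays were below all 4 arrays of the other 2 groups. Of the 30 largest changes, 17 were also called with the 4 knock-down arrays alone, all 30 with 6 arrays, and 28 in every fit that left out 1 array. The exceptions were GER8 (LOC4325743) and COPT1 (LOC4324610), which lost their call without KD wild-type-like replicate 2, with differences of -4.15 and -4.38 there.

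**Figure D2:**
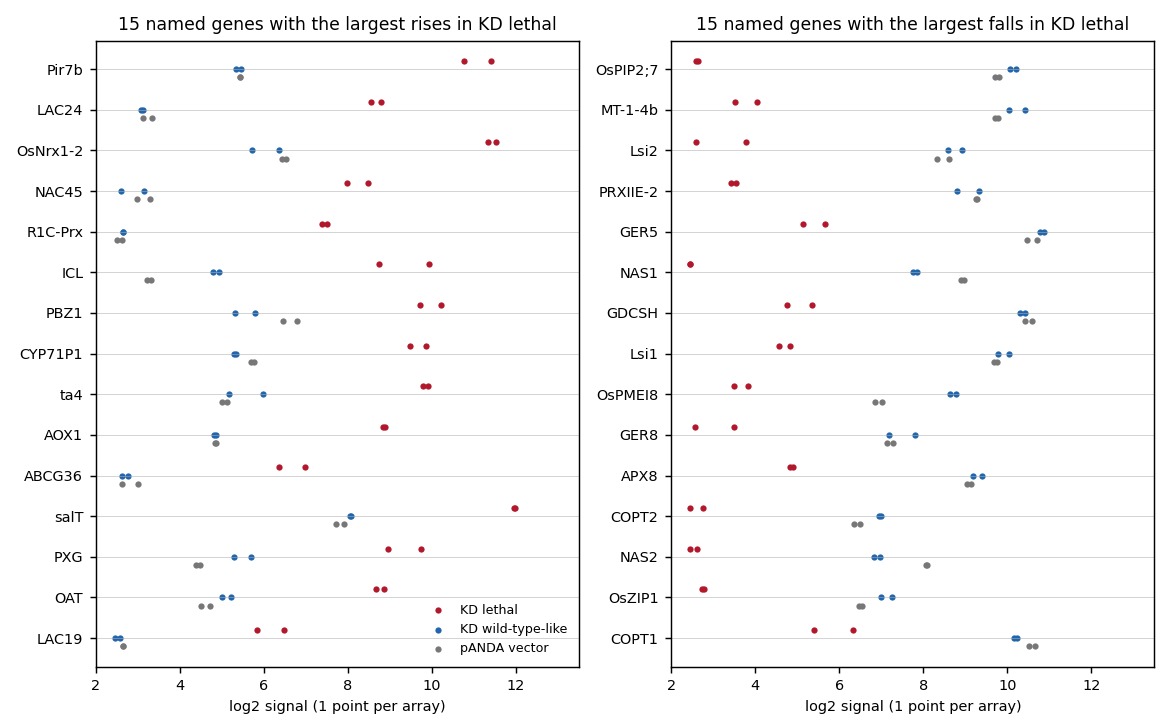
Log2 signal of the 15 largest rises and the 15 largest falls among named genes on each KD lethal, KD wild-type-like and pANDA array, 1 point per array (2 per group). Genes were drawn only where the KD lethal points do not overlap the KD wild-type-like points.

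Genes were also counted in lists of related function. The lists with the highest share of falls were the Calvin cycle, the photosystems, chlorophyll, and the list of germin-like and phytosulfokine genes, and those with the highest share of rises were NAC factors, the proteasome, RNA silencing, dehydration genes and ABC transporters. The shares below can be read against 13.6% of all genes called higher and 10.2% called lower. Among the 2457 named genes, from which the lists were drawn, these shares were 14.65% and 11.48%. All genes include 3825 at the floor in both groups, and the lists differ in how many such genes they hold. A list whose counts lie near these shares is not set apart by them.

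**Figure D3:**
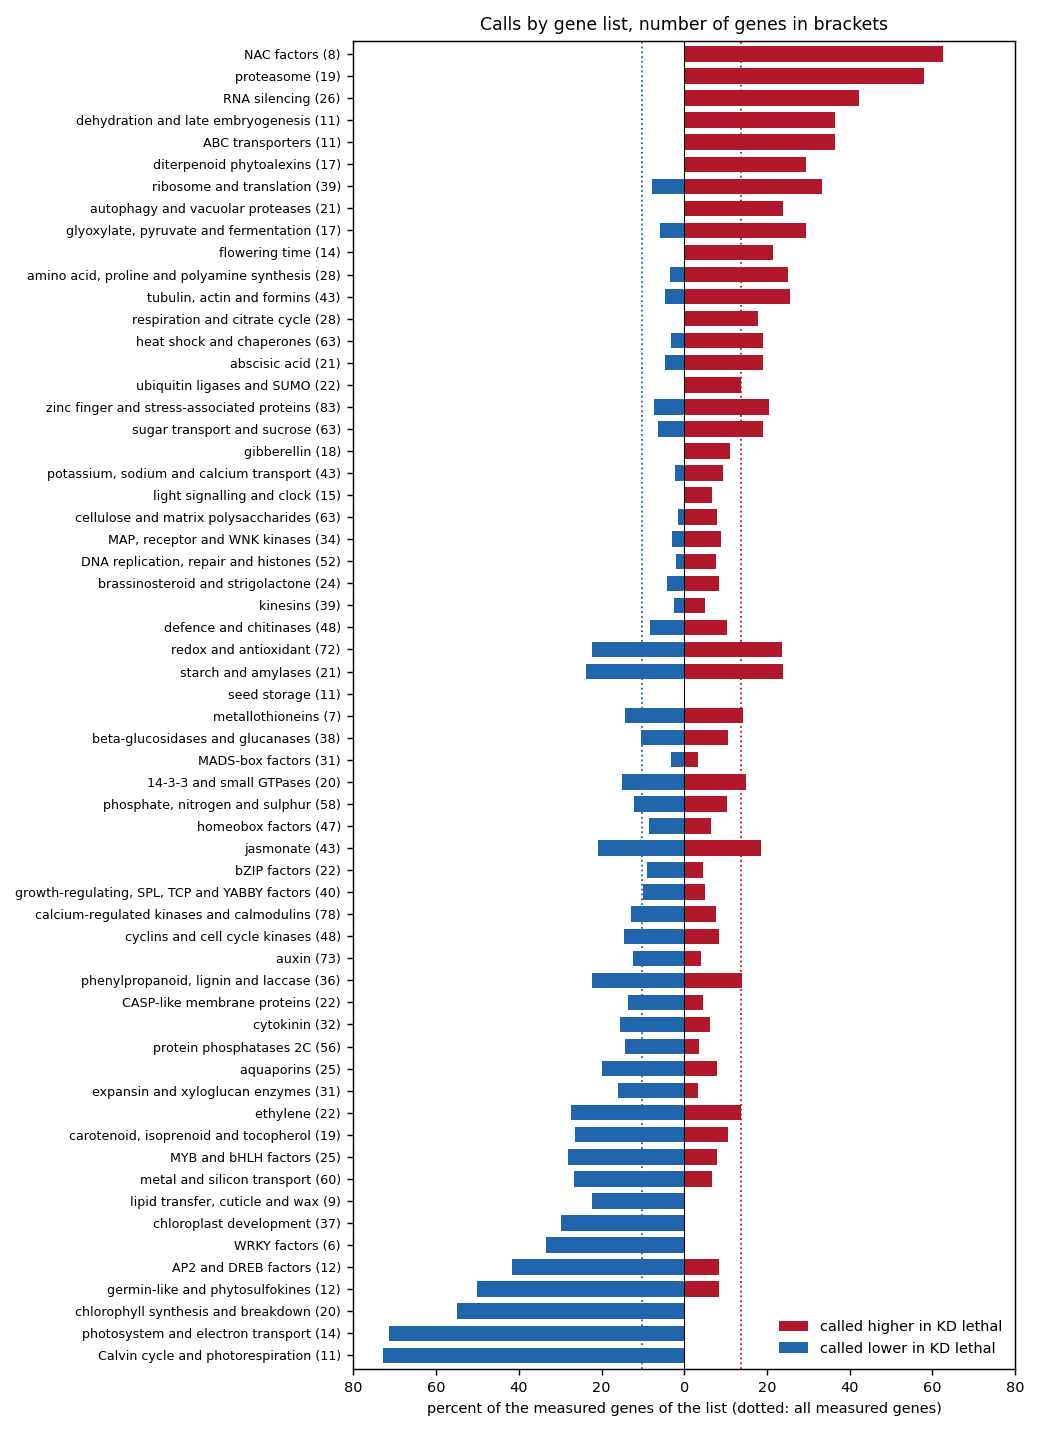
Percentage of measured genes of each list called higher or lower in KD lethal than in KD wild-type-like seedlings (limma, adjusted p under 0.05), with the same percentages for all 17905 genes (13.6% and 10.2%) as dotted lines; the number of genes stands in brackets. The photosystem and Calvin cycle lists have no higher call, and the proteasome and RNA silencing lists no lower one.

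Most measured genes of photosynthesis were lower in KD lethal seedlings. Of 14 genes of the photosystems and electron transport, 10 fell (71.4%) and none rose, with a median difference of -2.74. Of 11 genes of the Calvin cycle and photorespiration, 8 fell, with a median of -3.29. RCABP69, a chlorophyll a/b-binding protein of the light-harvesting antenna, had 7.22 and 8.18 in KD lethal against 11.85 and 11.82 in KD wild-type-like, 17.6-fold lower (adjusted p = 0.00170). petC, the Rieske iron-sulphur protein that passes electrons between the photosystems, had 8.40 and 9.04 in KD lethal, against 11.89 and 11.65 in KD wild-type-like. LIR1, a light-induced protein that holds ferredoxin-NADP reductase at the thylakoid, had 7.92 and 8.18 in KD lethal, against 11.82 and 11.37 in KD wild-type-like. These 2 genes were 8.26-fold and 11.7-fold lower (adjusted p = 0.00103 and 5.95e-04).

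The small subunit of Rubisco, the enzyme that fixes carbon dioxide, was lower as well. OsrbcS had 8.32 and 8.41 in KD lethal, against 12.49 and 12.75 in KD wild-type-like and 12.50 and 12.49 in pANDA, a fall of 4.25 ± 0.085 (adjusted p = 4.25e-05). GDCSH, the H protein of the glycine decarboxylase complex that recovers carbon in photorespiration, had 4.76 and 5.36 in KD lethal, against 10.42 and 10.29 in KD wild-type-like. It was 39.2-fold lower (adjusted p = 2.08e-04). Of the glycolate oxidases of photorespiration, GLO5 and GLO1 were lower. GLO5 had 6.35 and 5.56 in KD lethal, against 9.78 and 9.90 in KD wild-type-like, 14.7-fold lower (adjusted p = 0.0139), and GLO1 was 4.45-fold lower (adjusted p = 0.0252). These 2 calls are less secure, made in 7 and 4 of the 10 fits that left out 1 array, and the genes were chosen after their values were seen. GLO3 and GLO4 were not called: GLO3 had 7.72 and 7.01 in KD lethal, against 6.06 and 5.75 in KD wild-type-like (adjusted p = 0.361), and GLO4 had 6.85 and 7.84 in KD lethal, against 5.95 and 6.28 in KD wild-type-like (adjusted p = 0.243). TPT, which exports triose phosphate from the plastid, was lower by 9.78-fold (adjusted p = 0.00444).

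Genes of chlorophyll synthesis were lower too. Of 20 genes, 11 were lower (55.0%) and none higher, with a median of -1.63. PORB, the light-requiring protochlorophyllide reductase, had 5.79 and 5.72 in KD lethal, against 9.08 and 8.79 in KD wild-type-like, 9.05-fold lower (adjusted p = 2.66e-04). GluTR, which starts tetrapyrrole synthesis, had 6.62 and 6.87 in KD lethal, against 10.42 and 9.71 in KD wild-type-like (adjusted p = 0.00114). The KD lethal values of both genes lay below every other array of the 3 groups. CHLP, the geranylgeranyl reductase that makes the phytol tail of chlorophyll, was 10.2-fold lower (adjusted p = 1.23e-04). The chain that feeds this tail and the carotenoids was lower at its entry, with CLA1 (1-deoxyxylulose phosphate synthase) down 6.98-fold and the reductase gene DXR down 3.26-fold. The phytoene synthase genes OsPSY1 and OsPSY2 were lower by 1.52 and 1.26 log2 units. These calls were among 5 falls and 2 rises in 19 genes of carotenoid, isoprenoid and tocopherol synthesis, the rises numbering 1 without KD wild-type-like replicate 2 or either B4NU array.

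Genes for building the plastid were lower in smaller number. GLK1, a transcription factor that promotes chloroplast development, had 4.05 and 4.12 in KD lethal against 6.08 and 5.90 in KD wild-type-like and 5.40 and 5.48 in pANDA (lower by 1.90 ± 0.077, adjusted p = 2.28e-04). THF1, needed for thylakoid formation, had 7.08 and 6.90 in KD lethal, against 10.39 and 10.22 in KD wild-type-like, 9.95-fold lower (adjusted p = 0.00575). CpSecY, the thylakoid protein translocase, was 4.74-fold lower. In the list of 37 chloroplast development genes, 11 fell, none rose, and the median was -0.33. The count was 5 without KD lethal replicate 1 or KD wild-type-like replicate 2 or either pANDA array or either B4NU array and 6 without KD lethal replicate 2 or KD wild-type-like replicate 1. With the 4 knock-down arrays alone the photosystem, Calvin cycle, chlorophyll and chloroplast development lists kept 1, 1, 3 and 4 lower calls.

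**Figure D4:**
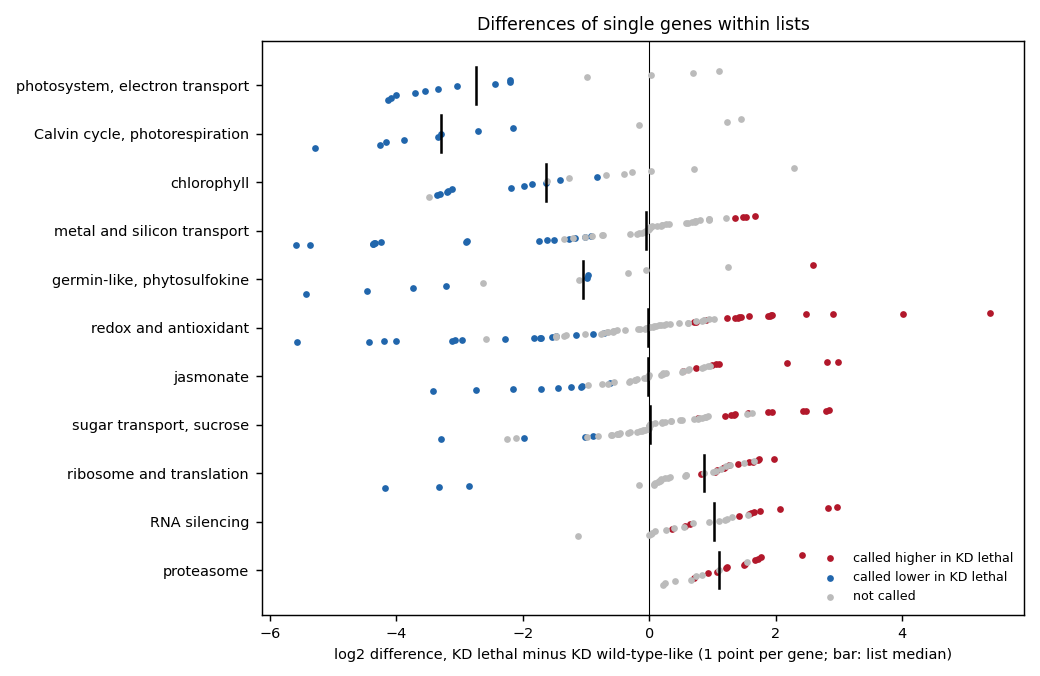
Log2 difference of KD lethal minus KD wild-type-like for each measured gene of selected lists, 1 point per gene, red where called higher in KD lethal, blue where called lower and grey where not called; the black bar is the list's median and the thin line is 0. The photosynthesis and chlorophyll genes lie mostly left of 0, and all 19 proteasome genes lie right of it.

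Among genes of nitrogen assimilation, which uses reducing power from the plastid, single genes were called in both directions. The plastid glutamine synthetase GLN2 had 5.601 and 6.31 in KD lethal, against 10.23 and 10.02 in KD wild-type-like, 18.0-fold lower (adjusted p = 6.83e-04). The cytosolic glutamine synthetase GLN1-3 had 4.87 and 5.48 in KD lethal against 2.50 and 2.71 in KD wild-type-like, where it lay at the floor, and was at least 5.93-fold higher (adjusted p = 0.00255). These 2 glutamine synthetase genes thus moved in opposite directions. NIA1, a nitrate reductase, was 9.37-fold lower (adjusted p = 0.00419). GLT2, a glutamate synthase, was at least 9.28-fold lower and lay at the floor in KD lethal (adjusted p = 0.00331), as did the ammonium transporter AMT1-2 (at least 4.96-fold lower). Of 58 genes of phosphate, nitrogen and sulphur use, 7 fell and 6 rose, shares near those of all genes (10.2% lower and 13.6% higher). The falls numbered 4 without KD lethal replicate 2 or KD wild-type-like replicate 2 and 11 without either over-expression array. The rises numbered 2 without KD wild-type-like replicate 2 or either B4NU array.

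Among genes for the uptake of metals and silicon, which is mainly a root function, falls outnumbered rises. The silicon channel Lsi1 had 4.82 and 4.56 in KD lethal, against 10.03 and 9.78 in KD wild-type-like and 9.76 and 9.68 in pANDA. Its partner Lsi2, which loads silicon outward toward the vascular tissue, had 2.58 and 3.78 in KD lethal, against 8.60 and 8.93 in KD wild-type-like. Both transporters were well below the other groups on each KD lethal array, by 37.1-fold for Lsi1 and 47.9-fold for Lsi2 (adjusted p = 1.48e-04 and 0.00224). NAS1 and NAS2 make nicotianamine, the iron chelator from which rice builds its phytosiderophores. NAS1 had 2.441 and 2.441 in KD lethal, against 7.85 and 7.77 in KD wild-type-like, and NAS2 had 2.62 and 2.444 in KD lethal, against 6.97 and 6.83 in KD wild-type-like. They were lower by at least 41.2-fold and 20.6-fold (adjusted p = 0.00136 and 4.43e-04). The 2 genes are close in sequence, and whether their probes read each other's transcripts was not tested. NAAT1, the aminotransferase of the next step, was lower by 1.74 ± 0.077 (adjusted p = 2.68e-04).

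The copper transporter COPT2 had 2.77 and 2.441 in KD lethal, against 7.004 and 6.94 in KD wild-type-like, and the zinc transporter OsZIP1 (LOC4326394) had 2.77 and 2.74 in KD lethal, against 7.24 and 6.99 in KD wild-type-like. Both were at the floor in KD lethal, each at least 20.6-fold lower (adjusted p = 5.70e-04 and 2.13e-04). A second gene carries the name OsZIP1 in the annotation (LOC4342782) and was higher by 1.68 ± 0.38 (adjusted p = 0.0491), less securely. OsZIP4, another zinc transporter, was higher by 1.48 ± 0.20 (adjusted p = 0.00830). In all, 16 of 60 metal and silicon genes fell (26.7%) and 4 rose. Falls numbered between 11 and 18 with any 1 array left out and 7 with the 4 knock-down arrays alone, while the rises numbered 2 without KD lethal replicate 2 or either pANDA array or either B4NU array, 1 without KD wild-type-like replicate 2 and 8 without either over-expression array. Their median difference was -0.05, near that of all genes.

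Among 25 aquaporins, 5 fell and 2 rose. OsPIP2;7 and Lsi1 accounted for the largest falls, and OsPIP2;2 was lower by 1.51 ± 0.21 (adjusted p = 0.00920). The falls numbered 3 without either KD lethal array or KD wild-type-like replicate 2, and the rises 0 without KD lethal replicate 2 or a KD wild-type-like array and 1 without either pANDA array or either B4NU array. Germin-like proteins are extracellular enzymes that often have superoxide dismutase or oxalate oxidase activity. GER5 had 5.65 and 5.14 in KD lethal, against 10.88 and 10.77 in KD wild-type-like, 43.1-fold lower (adjusted p = 7.98e-04), and GER6 was 9.31-fold lower. GER3 had 4.67 and 5.50 in KD lethal and lay at the floor in KD wild-type-like (2.50 and 2.50), so that it was at least 5.99-fold higher (adjusted p = 0.00320). The list of 12 genes holds 9 germin-like genes, of which 5 fell, and 3 genes of phytosulfokine peptide hormones, of which 1 (PSK2) fell. PSK2 lay at the floor in KD lethal, and its call is less secure. The 6 falls numbered 3 without KD wild-type-like replicate 2. Metallothioneins likewise split: MT-1-4b fell, while MT-2 had 12.49 and 12.40 in KD lethal, against 10.01 and 9.52 in KD wild-type-like, 6.41-fold higher (adjusted p = 0.00261). None of the 3 other probe sets of MT-2 was called.

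Redox genes changed in both directions. Of 72, 17 rose and 16 fell. AOX1, the mitochondrial alternative oxidase, had 8.88 and 8.82 in KD lethal, against 4.86 and 4.81 in KD wild-type-like and 4.83 and 4.86 in pANDA, 16.2-fold higher (adjusted p = 0.00114). The glutathione transferase GST-I had 7.24 and 7.87 in KD lethal, against 4.89 and 4.42 in KD wild-type-like, 7.48-fold higher (adjusted p = 0.00274). APX8, the ascorbate peroxidase of the thylakoid membrane, had 4.90 and 4.83 in KD lethal, against 9.40 and 9.18 in KD wild-type-like, 21.5-fold lower (adjusted p = 3.82e-04). APX7, its relative in the plastid stroma, was 3.69-fold higher (adjusted p = 7.61e-04), so plastid members moved both ways. The thioredoxin gene OsTrx25 and the glutaredoxin gene GRXC10 were lower by 1.71 and 1.83 log2 units, the second at the floor in KD lethal. The falls numbered between 11 and 18 with 1 array left out, and the rises 11 without KD lethal replicate 1 or KD wild-type-like replicate 1, 9 without KD lethal replicate 2, 8 without KD wild-type-like replicate 2 and 10 without either B4NU array.

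Defence genes gave a mixed picture with large single rises. PBZ1, a pathogenesis-related protein of the PR10 family, had 10.22 and 9.71 in KD lethal, against 5.30 and 5.79 in KD wild-type-like and 6.44 and 6.77 in pANDA, 21.4-fold higher (adjusted p = 0.00290). Pi21, a proline-rich protein whose loss gives blast resistance, had 7.83 and 7.83 in KD lethal, against 10.84 and 11.18 in KD wild-type-like, and the chitinase Cht6 had 3.57 and 4.02 in KD lethal, against 6.07 and 5.64 in KD wild-type-like. These were 9.09-fold and 4.18-fold lower (adjusted p = 0.00429 and 0.00271). Over 48 defence and chitinase genes, 5 rose and 4 fell, shares close to or below those of all genes. The rises numbered 8 without either over-expression array, and the falls 2 without KD lethal replicate 1 or either pANDA array and 8 without either over-expression array.

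Rice makes diterpenoid phytoalexins, antimicrobial compounds, from labdane precursors. Of 17 genes of this pathway, 5 rose (29.4%) and none fell. CYP701A8, an oxidase of these diterpenes, had 6.87 and 6.02 in KD lethal and lay at the floor in KD wild-type-like (2.92 and 2.90), at least 11.6-fold higher (adjusted p = 0.00118). KSL7, the ent-cassadiene synthase that opens the phytocassane branch, had 4.25 and 4.43 in KD lethal, against 2.47 and 2.45 in KD wild-type-like, also at the floor there, at least 3.69-fold higher (adjusted p = 4.27e-04). CYP71Z7 and CYP76M8, oxidases encoded beside it on the chromosome in a known cluster, were higher by at least 3.53-fold and 2.06-fold. The list's median over all members was 0.09, since 8 of the 17 genes lay at the floor in both groups.

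Jasmonate genes moved in both directions. Lipoxygenases make the precursor of jasmonate, and CM-LOX2 had 5.70 and 5.29 in KD lethal against 2.50 and 2.53 at the floor in KD wild-type-like, at least 7.89-fold higher (adjusted p = 4.77e-04). LOX5 was 4.50-fold higher (adjusted p = 0.00385). JAZ proteins repress jasmonate responses and are themselves switched on by the hormone. JAZ13, JAZ10 and JAZ9 were lower: JAZ13 had 6.89 and 7.18 in KD lethal, against 10.59 and 10.34 in KD wild-type-like, and JAZ10 had 7.82 and 8.22 in KD lethal, against 10.72 and 10.81 in KD wild-type-like. The falls were 10.8-fold, 6.71-fold and, for JAZ9, 3.28-fold (adjusted p = 5.92e-04, 3.41e-04 and 2.55e-04). JAZ8 went the opposite way, with 7.87 and 8.23 in KD lethal, against 5.26 and 5.21 in KD wild-type-like, 7.02-fold higher (adjusted p = 8.28e-04). OPR5, a reductase gene of the jasmonate synthesis family, was lower by 1.08 ± 0.064 (adjusted p = 6.01e-04). In the whole list of 43, 8 rose and 9 fell.

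Several genes of dehydration responses were higher. The lectin gene salT, named for its induction by salt, had 11.98 and 11.95 in KD lethal, against 8.06 and 8.04 in KD wild-type-like and 7.71 and 7.90 in pANDA, 15.1-fold higher (adjusted p = 0.00134). OsPM19L1, a membrane protein of drought and seed maturation, had 7.16 and 7.67 in KD lethal, against 4.40 and 4.45 in KD wild-type-like, 7.96-fold higher (adjusted p = 0.00166). The dehydrin RAB21 had 11.47 and 11.29 in KD lethal, against 10.17 and 10.08 in KD wild-type-like and 3.85 and 3.76 in pANDA. It was higher by 1.25 ± 0.16 in KD lethal than in KD wild-type-like (adjusted p = 0.00819), and both knock-down groups stood far above the vector. In this list 4 of 11 genes rose, or 7 without either over-expression array. A further dehydrin, Dhn1, had 8.51 and 7.13 in KD lethal, against 7.997 and 8.14 in KD wild-type-like and was not called (adjusted p = 1.00).

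In the list of abscisic acid, the hormone of water deficit, 4 of 21 genes rose and 1 fell, the falls numbering 0 without KD lethal replicate 1 and 5 without either over-expression array. OsSAPK1, a stress-activated kinase of this pathway, was higher by 1.37 ± 0.17 (adjusted p = 0.00664). Among 56 protein phosphatases 2C, a family whose best known members hold these kinases off, 8 fell and 2 rose. OsPP2C01 had 3.56 and 4.24 in KD lethal, against 7.51 and 7.13 in KD wild-type-like, 10.7-fold lower (adjusted p = 0.00300). BIPP2C1 was 7.52-fold lower (adjusted p = 0.00450). The falls numbered 4 without KD wild-type-like replicate 2 and 5 without either pANDA array, and the rises 5 without KD lethal replicate 1, 0 without KD wild-type-like replicate 1, 1 without KD wild-type-like replicate 2 or either pANDA array or either B4NU array and 6 without either over-expression array.

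Transcription factor families differed in direction. Of 8 NAC factors, 5 rose and none fell, led by NAC45, and the count was 3 without KD lethal replicate 2 or either pANDA array and 2 without either KD wild-type-like array. The other NAC rises were smaller, 1.38 log2 units for NAC068, 0.63 for NAC048, 0.55 for NAC071 and 0.46 for NAC2. These calls are less secure. NAC2 lay at the floor in KD wild-type-like, and another probe set of NAC071 was called in the opposite direction. DREB1 factors, which switch on cold-response genes, were lower: ERF24 (DREB1A) had 4.35 and 4.59 in KD lethal, against 7.68 and 7.69 in KD wild-type-like, 9.32-fold lower (adjusted p = 1.87e-04). ERF31 (DREB1B), ERF25 (DREB1G) and ERF30 (DREB1E) were lower by 3.42, 3.23 and 1.39 log2 units. In the AP2 and DREB list 5 of 12 fell and 1 rose, the riser being ERF42 (4.62-fold, adjusted p = 0.00666). The rises in this list numbered 2 without KD lethal replicate 1 and 3 without KD lethal replicate 2. Zinc finger genes leaned the other way with 17 rises and 6 falls in 83. OsC3H6 was 5.63-fold higher and OsC3H54 9.32-fold lower (adjusted p = 0.00457 and 0.00295). The rises numbered 10 without KD wild-type-like replicate 1 or either pANDA array and 9 without KD wild-type-like replicate 2 or either B4NU array. MYB and bHLH factors had 7 falls and 2 rises in 25, with MYBAS1 reaching the floor in KD lethal, a fall of at least 7.84-fold, and the rises in this list numbered 1 without KD wild-type-like replicate 2.

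The bZIP family, to which the target belongs, had few calls, with 1 rise and 2 falls in 22 genes. BZIP50, known in rice for its activation by stress of the endoplasmic reticulum, had 7.87 and 7.67 in KD lethal, against 6.71 and 6.40 in KD wild-type-like, 2.32-fold higher (adjusted p = 0.00930). BZIP06 was at the floor in KD lethal (2.92 and 2.71) against 4.98 and 4.90 in KD wild-type-like, at least 4.36-fold lower (adjusted p = 0.00510). BZIP52, also at the floor in KD lethal, was at least 1.96-fold lower, a call lost without either KD lethal array. The rises numbered 3 without KD lethal replicate 1 or either over-expression array and 2 without either KD wild-type-like array. The falls were 1 without either KD lethal array. Among 15 photoreceptor, light signalling and clock genes 1 was called: PhyB, the phytochrome B photoreceptor, with 7.44 and 7.65 in KD lethal, against 6.49 and 6.08 in KD wild-type-like (higher by 1.26 ± 0.24, adjusted p = 0.0290). The number of calls was 0 without either KD lethal array or KD wild-type-like replicate 2 or either pANDA array or either B4NU array. The clock genes OsPRR73 and OsPRR95 differed by 0.09 ± 0.20 and -0.30 ± 0.47 and were not called (adjusted p = 1.00 and 0.959).

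In protein breakdown and folding more genes rose than fell. The proteasome degrades ubiquitin-tagged proteins, and 11 of its 19 measured genes rose (57.9%), none fell, and the median was 1.10. RPN1A, a subunit of the base of the regulatory particle, had 8.98 and 9.28 in KD lethal, against 6.74 and 6.68 in KD wild-type-like and 6.69 and 6.97 in pANDA, 5.34-fold higher (adjusted p = 0.00103). OsPAE1, a subunit of the core particle, had 9.59 and 9.81 in KD lethal, against 8.11 and 7.95 in KD wild-type-like, 3.18-fold higher (adjusted p = 0.00141). OsRPN11, the deubiquitinating enzyme of the lid, was higher by 0.93 ± 0.11 (adjusted p = 0.00546). The count was 6 without KD lethal replicate 2 or KD wild-type-like replicate 2, and 2 with the 4 knock-down arrays alone.

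Of 63 heat shock and chaperone genes, 12 rose and 2 fell. HSP26.2, a small heat shock protein, had 8.36 and 8.15 in KD lethal, against 4.57 and 4.67 in KD wild-type-like, 12.4-fold higher (adjusted p = 5.49e-04). HSP18.1 was 5.74-fold higher while HSP18.8 was 9.36-fold lower (adjusted p = 2.56e-04 and 0.00609), so the small heat shock proteins did not move as a family. The protein disulphide isomerases OsPDIL2-3 and OsPDIL5-2, which fold proteins in the endoplasmic reticulum, were higher by 1.66 and 1.54 log2 units. The falls numbered 1 without either KD lethal array or either pANDA array or either B4NU array and 4 without either over-expression array. In the list of autophagy and vacuolar proteases 5 of 21 genes rose, among them OC-II, OC-IV and OC-X, which are cystatins and so inhibit cysteine proteases. OC-II was 5.54-fold higher (adjusted p = 0.00664). The count was 3 without either KD wild-type-like array or either pANDA array or either B4NU array.

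More translation genes rose than fell. Of 39 ribosomal protein and translation factor genes, 13 rose and 3 fell, and the median was 0.87. QM1, the L10 protein of the cytosolic ribosome, had 11.68 and 11.39 in KD lethal, against 9.93 and 9.70 in KD wild-type-like, 3.298-fold higher (adjusted p = 0.00644). The elongation factor subunit EF-1-beta and the helicase eIF-4A-3 were 2.64-fold and 3.12-fold higher (adjusted p = 0.00738 and 0.00861). The 3 that fell were RPL27 and CL18, whose alternative names mark them as chloroplast ribosomal proteins, and rpl5. RPL27 had 4.93 and 5.43 in KD lethal, against 9.52 and 9.19 in KD wild-type-like, 18.1-fold lower, and CL18 and rpl5 were 10.0-fold and 7.21-fold lower (adjusted p = 3.23e-04, 0.00123 and 0.00966). The number of rises was 7 without KD lethal replicate 1 or KD wild-type-like replicate 1 or either pANDA array and 6 without KD lethal replicate 2 or KD wild-type-like replicate 2 or either B4NU array, whereas the 3 falls were kept in each fit that left out 1 array.

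Genes of RNA silencing, the process that a knock-down construct uses, rose in KD lethal relative to KD wild-type-like seedlings, which were knock-downs as well. Of 26 genes of small RNA production and use, 11 rose (42.3%), none fell, and the median was 1.02. AGO1D, an Argonaute of the clade that cuts transcripts matched by small RNAs, had 6.61 and 6.98 in KD lethal, against 4.06 and 3.60 in KD wild-type-like and 3.41 and 3.86 in pANDA, 7.82-fold higher (adjusted p = 0.00251). AGO1A was 3.35-fold higher and AGO18, an Argonaute of antiviral defence, 2.97-fold higher (adjusted p = 0.00163 and 0.00683). AGO4A, of the clade that guides DNA methylation, had 7.43 and 7.70 in KD lethal, against 7.33 and 7.26 in KD wild-type-like and was not called (adjusted p = 0.421). The count was 6 without KD lethal replicate 2, 7 without either KD wild-type-like array or either pANDA array and 5 without either B4NU array, and 1 with the 4 knock-down arrays alone.

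Genes of the glyoxylate cycle were higher. ICL, isocitrate lyase, the entry enzyme of the glyoxylate cycle by which seedlings turn stored fat into sugar, had 8.73 and 9.93 in KD lethal, against 4.92 and 4.80 in KD wild-type-like and 3.21 and 3.31 in pANDA. It was 22.2-fold higher (adjusted p = 0.00284), and malate synthase (MS), the second enzyme of the cycle, had 9.39 and 9.57 in KD lethal, against 6.94 and 6.93 in KD wild-type-like, 5.86-fold higher (adjusted p = 1.40e-04). Aconitase was 4.001-fold higher (adjusted p = 0.00105). In this list 5 of 17 genes rose, and 1, the alcohol dehydrogenase Adh2, fell (7.45-fold, adjusted p = 8.12e-04). Respiration had 5 rises and no fall in 28 genes, with 8 without either over-expression array. The mitochondrial adenine nucleotide carrier ANT was higher by 1.18 ± 0.12 and the succinate dehydrogenase subunit SDH1 by 1.78 ± 0.20 (adjusted p = 0.00352 and 0.00525).

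Sugar transport and sucrose genes had 12 rises and 4 falls in 63. The monosaccharide transporter MST3 had 10.06 and 10.63 in KD lethal, against 7.75 and 7.27 in KD wild-type-like, 7.15-fold higher (adjusted p = 0.00260). Sucrose synthase OsSUS4, the sugar exporter OsSWEET4 and the neutral invertase NIN1 were higher by 2.79, 2.48 and 1.94 log2 units. The falls included OsSWEET2a (3.95-fold lower, adjusted p = 0.00564) and numbered 2 without KD lethal replicate 1 or either pANDA array or either B4NU array. Starch genes moved both ways, 5 up and 5 down in 21. The alpha-amylase AMY1.1 had 11.84 and 11.60 in KD lethal, against 8.51 and 8.66 in KD wild-type-like, 8.80-fold higher, while AMY1.4 fell to the floor, by at least 4.79-fold (adjusted p = 0.00199 and 0.00111). The starch rises numbered 3 without KD lethal replicate 1 or a KD wild-type-like array or either pANDA array or either B4NU array, and the falls 3 without KD lethal replicate 2.

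Amino acid genes rose in 7 of 28 cases and fell in 1. OAT, ornithine aminotransferase, had 8.68 and 8.86 in KD lethal, against 5.22 and 4.995 in KD wild-type-like, 12.6-fold higher (adjusted p = 3.41e-04). The arginine decarboxylases ADC1 and ADC2, which open polyamine synthesis, were 2.70-fold and 4.99-fold higher (adjusted p = 0.00320 and 0.00386). ASA2, the anthranilate synthase subunit that starts tryptophan synthesis, was 3.17-fold higher (adjusted p = 0.00207). The rises numbered 4 without KD wild-type-like replicate 2 or either pANDA array or either B4NU array, and the falls 2 without KD lethal replicate 2 and 0 without KD wild-type-like replicate 1.

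Some genes of growth hormone pathways were lower and others were higher. Type A response regulators are switched on by cytokinin, and OsRR9 had 4.17 and 4.27 in KD lethal, against 7.52 and 7.44 in KD wild-type-like, 9.58-fold lower (adjusted p = 0.00171). OsRR6 was 3.48-fold lower, OsRR2 at least 4.05-fold lower, and the cytokinin-activating enzyme LOG 5.87-fold lower (adjusted p = 0.00550, 3.00e-04 and 0.00246). In the cytokinin list 5 of 32 genes fell and 2 rose, the rises numbering 1 without KD lethal replicate 1 or KD wild-type-like replicate 1, 0 without KD lethal replicate 2 or KD wild-type-like replicate 2 or either pANDA array or either B4NU array and 6 without either over-expression array. The Aux/IAA repressor genes IAA10 and IAA24, part of the auxin response, were lower by 3.11 and 3.16 log2 units (adjusted p = 0.00185 and 0.00459), and the auxin carrier OsPIN5a lay at the floor in KD lethal. Of 73 auxin genes 9 fell, a share near that of all genes, and 3 rose, a share below that of all genes. The falls numbered 5 without either pANDA array or either B4NU array and 17 without either over-expression array. The rises numbered 1 without KD wild-type-like replicate 2 or either pANDA array or either B4NU array and 6 without either over-expression array. In the gibberellin list none fell and 2 of 18 rose, a share below that of all genes. They were SPY, a negative regulator of gibberellin responses (3.42-fold higher, adjusted p = 0.00346), and, less securely, the gibberellin synthesis gene GA20OX3 (5.35-fold higher, adjusted p = 0.00631). The count was 6 without either over-expression array.

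Cell wall and cell division genes changed modestly in number. Expansins loosen walls during growth, and EXPB11 had 4.18 and 3.82 in KD lethal, against 6.71 and 7.27 in KD wild-type-like, 7.94-fold lower (adjusted p = 0.00603). EXLA3, of the same list, went the other way and was 2.035-fold higher (adjusted p = 0.00453). Expansin and xyloglucan enzyme genes fell in 5 of 31 cases, or 3 without KD wild-type-like replicate 2. OsPMEI8, a pectin methylesterase inhibitor, had 3.82 and 3.50 in KD lethal, against 8.63 and 8.79 in KD wild-type-like and 7.01 and 6.86 in pANDA, 33.1-fold lower in KD lethal than in KD wild-type-like (adjusted p = 0.00233). Phenylpropanoid and lignin genes fell in 8 and rose in 5 of 36. The risers included the laccases LAC24, LAC19 and LAC15, and the fallers the peroxidase PRX74 (19.7-fold, adjusted p = 0.00147) and the alcohol dehydrogenase CAD8C (8.78-fold, adjusted p = 5.63e-04). The laccase LAC20 was at least 3.75-fold lower, to the floor, so laccases moved both ways. KRP6, an inhibitor of cyclin-dependent kinases, had 3.24 and 3.38 in KD lethal, against 7.13 and 7.01 in KD wild-type-like, 13.6-fold lower (adjusted p = 0.00166). Cyclins and cell cycle kinases numbered 7 falls and 4 rises in 48, the falls numbering 3 without KD wild-type-like replicate 2, and the rises 2 without KD wild-type-like replicate 2 or either pANDA array or either B4NU array. Cytoskeletal genes rose in 11 and fell in 2 of 43, for example ADF5, an actin-depolymerising factor (2.78-fold higher, adjusted p = 0.00121). The rises numbered 6 without KD lethal replicate 2 or either pANDA array or either B4NU array, 7 without KD wild-type-like replicate 1 and 5 without KD wild-type-like replicate 2, and the falls 0 without KD lethal replicate 1 or KD wild-type-like replicate 1 and 1 without KD lethal replicate 2 or either pANDA array or either B4NU array.

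Calcium sensors and the kinases they control had 10 falls and 6 rises in 78. The share of falls was near that of all genes and the share of rises below it. The kinase CIPK7 had 6.82 and 6.38 in KD lethal, against 9.49 and 9.37 in KD wild-type-like, 7.12-fold lower, and CIPK2 had 9.37 and 9.97 in KD lethal, against 6.78 and 6.70 in KD wild-type-like, 7.60-fold higher (adjusted p = 0.00127 and 0.00268). Members of one kinase family thus moved in opposite directions. The falls numbered 6 without KD wild-type-like replicate 1 or either pANDA array, and the rises 10 without either over-expression array. ABC transporters, which pump compounds across membranes at the cost of ATP, rose in 4 of 11 cases and fell in none. ABCG36 had 6.97 and 6.36 in KD lethal and lay at the floor in KD wild-type-like (2.75 and 2.61), at least 15.8-fold higher (adjusted p = 7.13e-04). ABCC13 and ABCG48 were 6.77-fold and 11.8-fold higher (adjusted p = 0.00289 and 0.00170).

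The tissue label was read against genes of shoot, root and grain. KD wild-type-like seedlings expressed both the leaf genes (OsrbcS at 12.49 and 12.75) and the root genes (Lsi1 at 10.03 and 9.78), and both were lower in KD lethal. Of 11 seed storage genes, 9 lay at the floor in both groups and none was called. The seed globulin GLB had 5.56 and 5.27 in KD lethal, against 6.38 and 6.37 in KD wild-type-like (adjusted p = 0.134).

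The pANDA vector lay on the side of KD wild-type-like for most calls. Its mean was nearer to KD wild-type-like than to KD lethal for 3625 of the 3708 higher calls (97.8%) and for 2439 of the 2700 lower calls (90.3%). The median of KD wild-type-like minus pANDA was -0.01 over the higher and 0.04 over the lower calls. Some genes differed from this. Of the 2435 genes called higher, KD wild-type-like was at least 1 log2 unit above pANDA in 16 and below it in 13, and of the 1830 called lower it was above in 25 and below in 31. RAB21, described above, and OsPM19L1, ICL, SSI, PXG and LEA19 were graded, highest in KD lethal, intermediate in KD wild-type-like and lowest in pANDA. Cht6, JAZ9, NAS1, NAS2, PRX74 and ERF25 were graded the other way, lowest in KD lethal and highest in pANDA. The call of LEA19 is less secure, made in 2 of the 10 fits that left out 1 array. NAS1 had 8.96 and 8.89 in pANDA, above its KD wild-type-like values of 7.85 and 7.77. OsPMEI8 and GER6 were highest in KD wild-type-like. These genes were picked after their values were seen, and the grading was not tested.

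**Figure D5:**
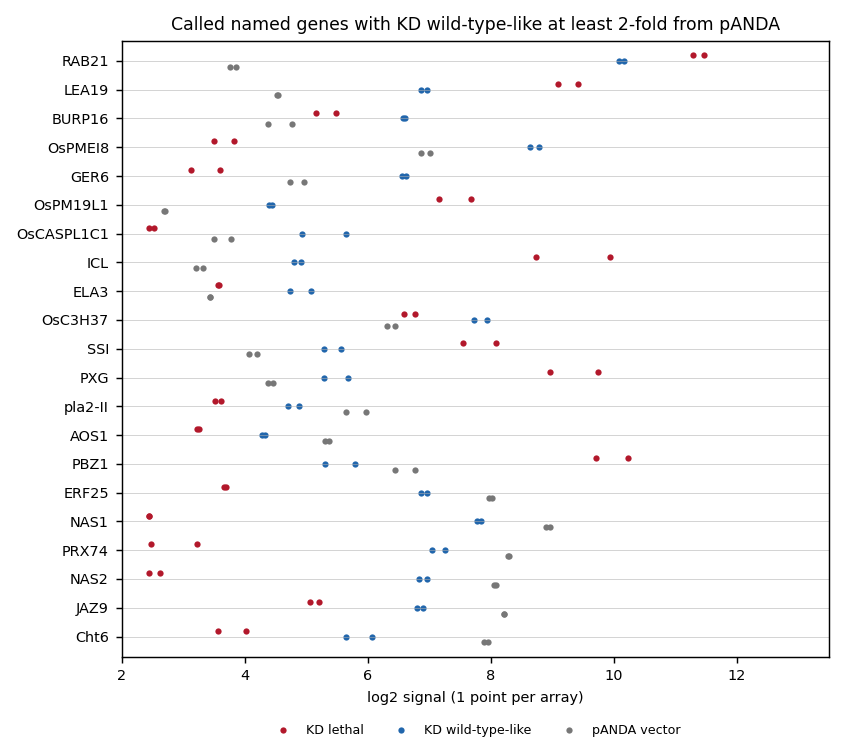
Log2 signal on each KD lethal, KD wild-type-like and pANDA array (2 points per group) for the named called genes whose KD wild-type-like mean lay at least 1 log2 unit from the pANDA mean. RAB21 is graded from KD lethal down to pANDA, and NAS1 from pANDA down to KD lethal.

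Part of the change lay outside the named genes. Of the calls, 943 higher and 680 lower probe sets could not be tied to a single gene. Among loci without a name, LOC4326659 had 11.22 and 10.72 in KD lethal against 3.08 and 3.22 in KD wild-type-like, and LOC4334379 had 9.90 and 10.96 in KD lethal against 2.97 and 3.01 in KD wild-type-like. LOC4325998 had 3.04 and 2.73 in KD lethal against 10.98 and 10.79 in KD wild-type-like, and LOC9271858 had 2.441 and 2.56 in KD lethal against 10.42 on both KD wild-type-like arrays. These were the 2 largest rises and the 2 largest falls among such loci. A second probe set existed for 846 of the called genes. It was called in the same direction for 226 of them and in the opposite direction for 8.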

How the data were processed

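Values of 10 arrays, 2 per group, were taken from the table of log2 signals that the authors deposited. The submitters' processing notes name GCOS together with Expression Console 1.4.1.46 from Affymetrix. How the arrays were summarised and normalised is not stated in those notes, and the log2 scale was inferred from the range. The pANDA and KD arrays appear to have been normalised apart from the other 4, and only arrays of that set are compared here. Arrays give no read depth, and precision is limited by their number.

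Of 57381 probe sets, 123 array controls were left out. A model with a coefficient per group was fitted over all 10 arrays with limma 3.58.1 (R 4.3.3), using lmFit and an untrended eBayes with 5 residual and 0.472 prior degrees of freedom, after the script was tested on simulated data. Tests were two-sided, adjusted by Benjamini-Hochberg over 57258 probe sets, and called at an adjusted p under 0.05 with no fold cutoff. A group was at the floor where its 2 arrays were no more than 0.5 above the set's minimum of 2.441, and a fold against it is a lower bound.

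A single gene was given for 22436 probe sets, several for 95 and none for 34727. Each of the 17905 genes was read from the probe set that averaged highest on the 10 arrays. All had an entry in RefSeq's table for assembly ASM3414082v1, from which names alone were taken. Few loci had a symbol other than the locus number, so synonyms were used as well, and 2457 genes were named. Named genes are drawn from the 15 largest rises and 15 largest falls among calls whose groups do not overlap. In each of 60 lists they are drawn from the 4 called members of smallest p in each direction and the 2 uncalled members of highest level. The comparison and the lists were chosen with earlier results of these data known, and 14 wrongly matched list members were removed after their values were seen.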

Additional observations from a re-analysis of the deposited data

How the results depend on the processing

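None of the 305 named called genes changed direction under quantile normalisation or centring. The other alternatives could not change it. They keep the difference between the KD groups, or drop an array from groups that do not overlap. Against 6408 called probe sets and 4265 genes, the 4 knock-down arrays alone gave 1191 probe sets (578 higher, 613 lower) and 817 genes. Centring each array gave 9743 probe sets (5974 higher, 3769 lower) and 6868 genes. Leaving out KD lethal replicate 2 and over-expression replicate 1 together, chosen after seeing the data, gave 12345 probe sets (8612 higher, 3733 lower) and 7322 genes. Leaving out 1 array at a time gave 4378 to 8927 probe sets, 2130 to 5225 of them higher and 1930 to 4358 lower, and 2783 to 6116 genes. The cause of these shifts was not tested, beyond the smaller number of arrays in the fits that drop some. A fit with 6 arrays gave 6005 probe sets, quantile normalisation 6022, array weights 7392, a trended robust prior 6585, and the test on probe sets above the floor 8671. The replicate numbers are only numbers: with the replicate block 5152 probe sets were called (2957 higher, 2195 lower), and deviations of same-numbered KD arrays correlated at -0.312. Crossed pairing gave 5538. With 2 arrays per group, and KD lethal arrays that differed from each other more than the KD wild-type-like or pANDA arrays did, most calls rest on a spread shared with the other groups.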
